A study of Mus musculus with 5 samples.

Results

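The 60 genes described here are the collagens, the laminins and their partners in the basement membrane, among 51912 rows in all. They were taken by symbol, with no measured value in the rule. The rule takes every row with a collagen chain symbol (44 genes), every row with a laminin chain symbol (11 genes), and Nid1, Nid2, Hspg2, Fn1 and Sparc. RNA sequencing compared C57BL/6 mice after a sham operation (2 libraries) with C57BL/6 mice after an ischemic stroke (3 libraries). Per the labels' protocols, mice were anesthetized with ketamine and xylazine, and the strokes were made with a coated filament that blocked the middle cerebral artery for 30 minutes. Only mice with a fall in cerebral blood flow of at least 80% entered the study, and their motor deficit was graded at 24 hours. The sources used here give neither the tissue, nor the time of sampling, nor the age of the mice, nor what the sham operation was. The labels do not say whether each library came from a separate mouse, so p-values measure the spread between these libraries, which may be technical. The deposited file gave 1 mean and 1 test per gene, and the reads behind them in each library were recovered from those values for all 60 genes. The sham libraries are called the deeper (size factor 0.945) and the shallower (0.734), and the stroke libraries are numbered from the largest size factor (1.16, 1.13 and 1.12). Which of them carries which replicate number is not known. The deeper sham library held 33651 reads of the 60 genes, the shallower 14403 and the stroke libraries 30364 to 32180.

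A basement membrane is a thin sheet of extracellular matrix that, in the brain, surrounds every blood vessel and underlies the pia. Laminin heterotrimers of an alpha, a beta and a gamma chain form one network, collagen IV trimers form another, and nidogens and the heparan sulfate proteoglycan perlecan (Hspg2) link them. Fibrillar collagens such as collagen I and III belong to the connective tissue of meninges and large vessels. Fibronectin (Fn1) and the collagen-binding glycoprotein osteonectin (Sparc) are made by vascular and glial cells. In bulk RNA, fewer cells of a type and less RNA per cell cannot be told apart.

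Of the 59 members with an adjusted p in the authors' deposited table, 1 rose after stroke, Col4a1, and 1 fell, Col8a1. The other 57 were not called at an adjusted p below 0.05, and Col6a6 had no adjusted p. Over all 17420 tested genes, 0.775% were called higher and 0.786% lower, so the members' counts were near the background. An unadjusted p under 0.05 was found for 10 members, 6 with a positive and 4 with a negative fold change, and for 10.5% of all tested genes. A log2 change is log2 of the stroke level over the sham level. The median log2 change was 0.10 over the tested members and -0.025 over all tested genes. The median standard error (SE) of the log2 change was 0.46 for members and 0.33 for all tested genes, so a typical member was measured less precisely than a typical gene. With 2 libraries against 3, an exact permutation test of 1 gene cannot give a two-sided p below 0.1, and positions of the libraries are described in its place. All stroke libraries lay above both sham libraries in 14 members, against 11.7% of 12171 tested genes with recovered reads. They lay below both in 3 members, against 14.0% of those genes.

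**Figure D1:**
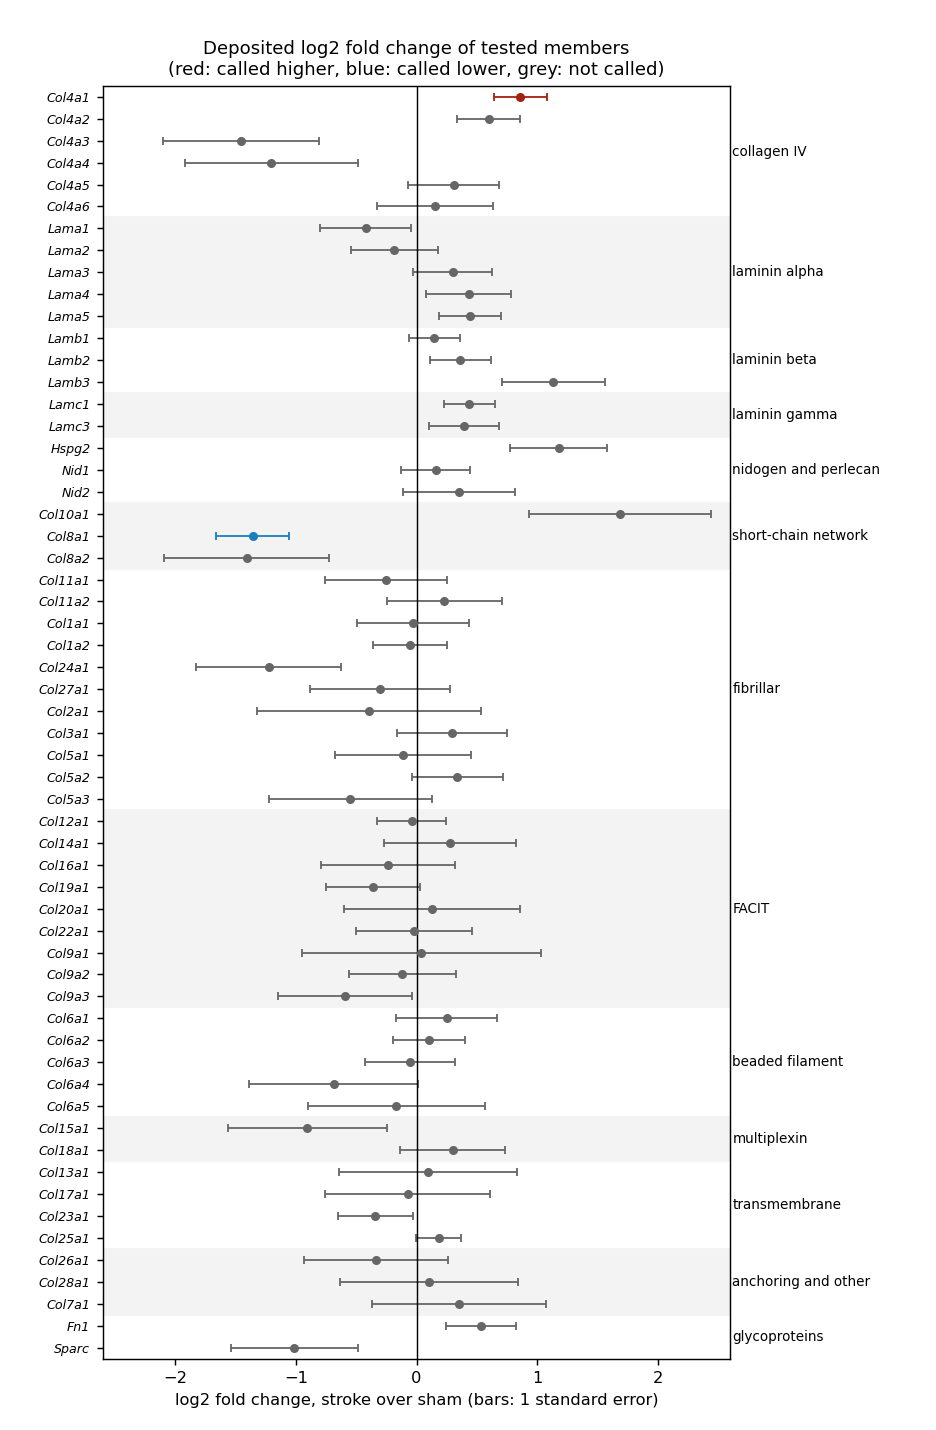
The plot shows the deposited log2 change (stroke over sham, x axis) of the tested members, all but 1 of the 59, grouped by structural class, with bars of 1 SE. Col4a1 (red, 0.86) and Col8a1 (blue, -1.36) are the called members, and the laminins lie mostly to the right of 0.

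Collagen IV is the collagen of basement membranes. Its genes lie in head-to-head pairs. Col4a1 and Col4a2 encode the chains of the widespread trimer, Col4a3, Col4a4 and Col4a5 those of a trimer best known from the kidney glomerulus, and Col4a5 and Col4a6 those of another. In the GENCODE annotation of GRCm38, Col4a1 (chromosome 8, 11198423 to 11312826, minus strand) and Col4a2 (chromosome 8, 11312805 to 11449287, plus strand) start 21 bases apart, and the genes overlap there on opposite strands. Col4a3 (chromosome 1, 82586921 to 82722059, plus strand) and Col4a4 (chromosome 1, 82448423 to 82586849, minus strand) start 72 bases apart. Col4a5 and Col4a6, on chromosome X, start 1309 bases apart.

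The promoter windows of the first pair are shown because both genes are read from the same short stretch, and that of Col4a4 because it also holds the annotated start of Col4a3. Each window is from RefSeq on GRCm38.p6, runs 5′ to 3′ on the gene's strand from 250 bases before to 50 after the start, and is in lower case. Capitals mark GC boxes (GGGCGG or CCGCCC) and CCAAT boxes (CCAAT or ATTGG), searched on both strands. The windows are chr8:11312777-11313076 (minus strand) for Col4a1, chr8:11312555-11312854 (plus strand) for Col4a2 and chr1:82586800-82587099 (minus strand) for Col4a4.
Col4a1: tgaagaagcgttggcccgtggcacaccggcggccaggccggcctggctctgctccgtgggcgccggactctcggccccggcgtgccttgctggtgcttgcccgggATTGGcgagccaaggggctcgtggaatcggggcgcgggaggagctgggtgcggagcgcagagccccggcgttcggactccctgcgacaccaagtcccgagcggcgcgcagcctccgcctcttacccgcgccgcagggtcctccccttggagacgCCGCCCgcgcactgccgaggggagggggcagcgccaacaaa
Col4a2: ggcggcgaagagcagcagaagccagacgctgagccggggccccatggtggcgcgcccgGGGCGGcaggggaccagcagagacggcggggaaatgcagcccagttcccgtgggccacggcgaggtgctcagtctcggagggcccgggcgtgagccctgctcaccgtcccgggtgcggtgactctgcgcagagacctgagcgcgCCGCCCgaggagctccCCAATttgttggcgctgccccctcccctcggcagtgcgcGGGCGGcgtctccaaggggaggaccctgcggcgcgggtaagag
Col4a4: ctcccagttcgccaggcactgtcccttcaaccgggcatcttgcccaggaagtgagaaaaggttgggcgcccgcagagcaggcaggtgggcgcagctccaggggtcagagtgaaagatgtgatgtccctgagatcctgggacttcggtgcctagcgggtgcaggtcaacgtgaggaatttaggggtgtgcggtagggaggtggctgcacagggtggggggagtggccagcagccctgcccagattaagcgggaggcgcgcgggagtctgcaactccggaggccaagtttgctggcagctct
The Col4a1 and Col4a2 windows share 78 bases. The Col4a1 window held 1 GC box and 1 CCAAT box, the Col4a2 window 3 GC boxes and 1 CCAAT box, and the Col4a4 window neither. Neither pair had a TATA box (TATAAA or TTTATA) in these windows. A GC box occurred in 35.7%, a CCAAT box in 37.4% and a TATA box in 13.6% of the 32851 promoters in the table. A match is a description of the letters only. The table had an entry for 43 of the 60 members.

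Col4a1 was the member that rose. Its normalized counts (reads divided by the library's size factor) were 1437 (deeper) and 1252 (shallower) in the sham libraries, and 2201, 2325 and 2801 in the stroke libraries. Every stroke library lay above both sham libraries, with a stroke mean of 2442 ± 317 (SD, n = 3). The log2 change in the authors' deposited table was 0.86 (SE 0.22, adjusted p = 0.0117), or 1.82-fold. With limma on log2 of the recovered normalized counts, which called 1 gene higher and 1 lower among 12175 genes, the log2 change was 0.86 and the adjusted p = 0.457. Over all alternatives the adjusted p of Col4a1 ran from 0.0117 to 1.

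Col4a2 lay in the same direction and was not called. It had 1896 (deeper) and 1176 (shallower) normalized counts in the sham libraries, against 2329, 2275 and 2378 in the stroke libraries. All stroke libraries were above both sham libraries, but the sham libraries differed from each other 1.61-fold. The authors' deposited table gave a log2 change of 0.60 (SE 0.26, adjusted p = 0.334). Within a library the ratio of Col4a1 to Col4a2 counts was 0.758 (deeper) and 1.06 (shallower) in the sham libraries and 0.945 to 1.18 in the stroke libraries. The ratio of the shallower sham library thus lay within the stroke range, and only that of the deeper lay below it.

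The Col4a3 and Col4a4 pair had low counts and the opposite sign. Col4a3 had 36.0 and 38.2 normalized counts in the deeper and shallower sham libraries and 16.4, 10.6 and 13.4 in the stroke libraries. Col4a4 had 48.7 and 30.0 in the sham libraries and 11.2, 12.4 and 27.8 in the stroke libraries. For both genes the stroke libraries were all lower than either sham library, and together with Col8a1 these were the 3 members at that position. Neither was called: log2 changes in the authors' deposited table were -1.46 (SE 0.65, adjusted p = 0.345) for Col4a3 and -1.21 (SE 0.72, adjusted p = 0.603) for Col4a4. Behind these values are 12 to 34 reads per library for Col4a3 and 13 to 46 for Col4a4, so counting error is large. Col4a5 had 107 and 70.9 normalized counts in the sham libraries and 108, 102 and 122 in the stroke libraries, which overlapped. Col4a6 had 37.0 and 42.2 in the sham libraries and 43.2, 42.4 and 46.6 in the stroke libraries, with the lowest stroke library barely above the shallower sham library. Their log2 changes in the authors' deposited table were 0.31 (SE 0.38, adjusted p = 0.915) and 0.16 (SE 0.48, adjusted p = 0.983).

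**Figure D2:**
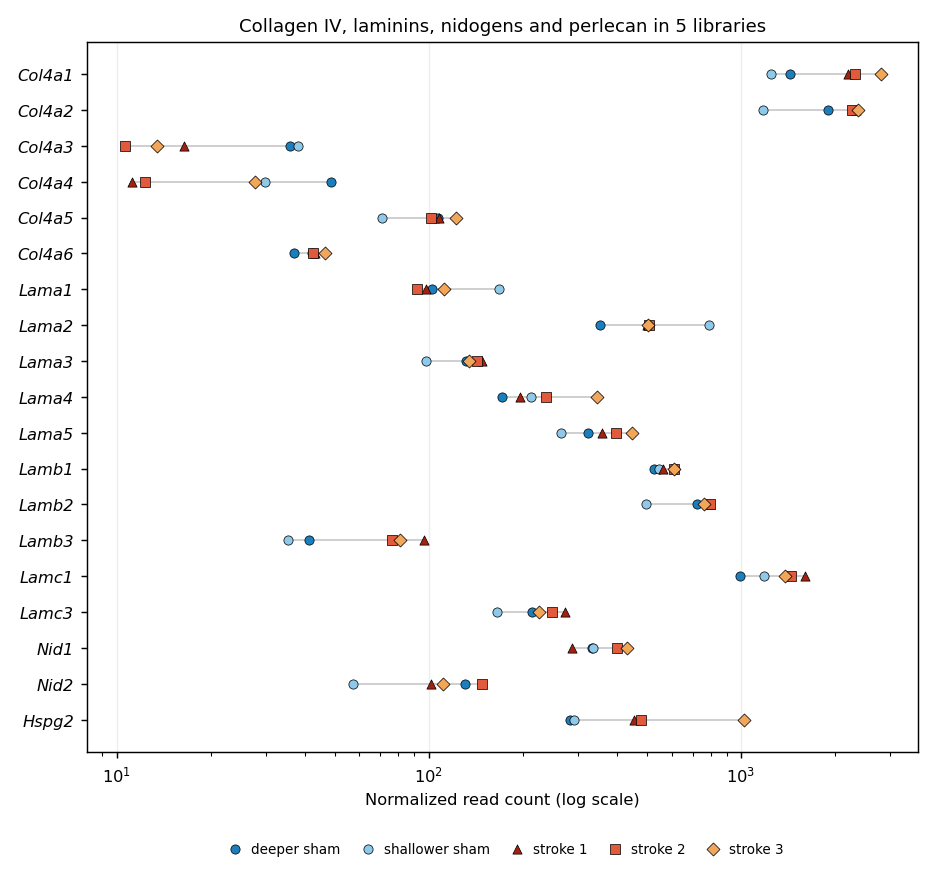
Normalized read counts (x axis, log scale) of the 6 collagen IV, 10 of the 11 laminin, 2 nidogen and 1 perlecan genes are plotted for each of the 2 sham libraries (blue circles) and 3 stroke libraries (red to orange symbols), and a grey line spans the range of each gene. The stroke symbols lie to the right of both circles for Col4a1, Col4a2, Lamb3, Lamc1 and Hspg2, and to the left for Col4a3 and Col4a4.

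No laminin chain was called. Of the 11 chains, 9 had a positive fold change, against 47.2% of all tested genes, and in 7 every stroke library lay above both sham libraries, against 11.7% of tested genes with recovered reads. The median log2 change over the 11 was 0.36 and in no chain were all stroke libraries lower than both sham libraries. Summed over the chains, normalized counts were 3896 (deeper) and 4436 (shallower) in the sham libraries and 5079, 4993 and 5080 in the stroke libraries. The sums were thus higher in each stroke library than in either sham library, a difference not tested as a sum.

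Among the alpha chains, Lama2 and Lama1 had the negative signs. Lama2, the alpha chain made by astrocytes and muscle, had 355 and 792 normalized counts in the deeper and shallower sham libraries and 499, 507 and 504 in the stroke libraries, so all stroke libraries lay between the sham libraries. Its log2 change in the authors' deposited table was -0.19 (SE 0.36, adjusted p = 0.958). Lama1, the chain of early embryonic and pial basement membranes, had 103 and 168 in the sham libraries and 97.7, 91.9 and 112 in the stroke libraries, which overlap. For Lama1 the authors' deposited table gave a log2 change of -0.42 (SE 0.38, adjusted p = 0.840).

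Lama4 and Lama5 are the alpha chains of endothelial basement membranes. Lama4 had 171 and 213 normalized counts in the sham libraries and 195, 237 and 345 in the stroke libraries, where stroke library 1 lay between the sham libraries. Lama5 had 323 and 266 in the sham libraries and 360, 399 and 446 in the stroke libraries, all above both. In the authors' deposited table their log2 changes were 0.43 (SE 0.35, adjusted p = 0.798) and 0.45 (SE 0.26, adjusted p = 0.581). Lama3, an epithelial alpha chain, had 131 and 98.1 in the sham libraries and 148, 143 and 134 in the stroke libraries and the lowest stroke library close to the deeper sham library. For Lama3 the authors' deposited table gave a log2 change of 0.30 (SE 0.33, adjusted p = 0.899).

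Each of the 3 beta chains had every stroke library above both sham libraries. Lamb3, the beta chain of the epithelial laminin, stood furthest: 41.3 and 35.4 normalized counts in the sham libraries and 96.8, 76.0 and 80.6 in the stroke libraries. Its log2 change in the authors' deposited table was 1.14 (SE 0.43, adjusted p = 0.199), the largest of the laminins, and it was not called. Lamb2, the beta chain of mature vascular and synaptic basement membranes, had 721 and 497 in the sham libraries and 794, 797 and 762 in the stroke libraries. Lamb1, the other widespread beta chain, had 527 and 545 in the sham libraries and 563, 608 and 612 in the stroke libraries. For Lamb1 all 5 libraries lay close together. Log2 fold changes in the authors' deposited table were 0.36 (SE 0.25, adjusted p = 0.724) for Lamb2 and 0.15 (SE 0.21, adjusted p = 0.930) for Lamb1.

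Lamc1 is the gamma chain of nearly all vascular laminins and had the most reads of the laminins. It had 992 and 1189 normalized counts in the sham libraries and 1604, 1447 and 1379 in the stroke libraries, all above both. The log2 change in the authors' deposited table was 0.44 (SE 0.21), with an unadjusted p of 0.0383 and an adjusted p of 0.419. Lamc3, a gamma chain found in meninges and retina, had 214 and 165 in the sham libraries and 274, 248 and 226 in the stroke libraries, again all above both. Its log2 change in the authors' deposited table was 0.39 (SE 0.29, adjusted p = 0.753).

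The linking proteins followed no single order. Perlecan (Hspg2) had 284 and 293 normalized counts in the sham libraries, which were nearly equal, and 453, 478 and 1026 in the stroke libraries. All stroke libraries were above both sham libraries and stroke library 3 was more than 2 times the others. In the authors' deposited table Hspg2 had a log2 change of 1.18 (SE 0.40) and an adjusted p of 0.127, so it was not called. Without stroke library 3 its log2 change by limma was 0.69, against 1.07 with all libraries. Nid1 had 334 and 335 in the sham libraries and 288, 401 and 432 in the stroke libraries, with stroke library 1 below both sham libraries. Nid2 had 130 and 57.2 in the sham libraries and 102, 148 and 111 in the stroke libraries, which overlap. Their log2 changes in the authors' deposited table were 0.16 (SE 0.29, adjusted p = 0.953) and 0.35 (SE 0.46, adjusted p = 0.922). Over Col4a1, Col4a2, the laminins, the nidogens and perlecan, 14 of 16 fold changes were positive, and 10 of 16 had every stroke library above both sham libraries. Over all tested genes 47.2% were positive, and 11.7% of those with recovered reads lay above. This group was put together for the count and leaves out Col4a3, Col4a4, Col4a5 and Col4a6. Over all 6 collagen IV genes 4 fold changes were positive and 2 negative. In 3 of the 6 every stroke library lay above both sham libraries, and in 2, Col4a3 and Col4a4, below both.

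Col8a1, the member that fell, encodes a short-chain collagen of the subendothelial matrix of vessels and of Descemet's membrane in the cornea. It had 251 and 247 normalized counts in the deeper and shallower sham libraries, which were nearly equal, and 104, 84.0 and 103 in the stroke libraries. Each stroke library was under either sham library, with a stroke mean of 96.9 ± 11.2 (SD, n = 3). In the authors' deposited table the log2 change was -1.36 (SE 0.30, adjusted p = 0.00193), or 0.39 of the sham level. By limma on recovered reads the log2 change was the same to 2 decimals and the adjusted p = 0.401, and over all alternatives the adjusted p ran from 0.00148 to 0.9996. The promoter window of Col8a1 (RefSeq, GRCm38.p6, chr16:57754688-57754987, minus strand) is shown with its 4 GC boxes in capitals, since this gene fell. It held no CCAAT box and no TATA box.
Col8a1: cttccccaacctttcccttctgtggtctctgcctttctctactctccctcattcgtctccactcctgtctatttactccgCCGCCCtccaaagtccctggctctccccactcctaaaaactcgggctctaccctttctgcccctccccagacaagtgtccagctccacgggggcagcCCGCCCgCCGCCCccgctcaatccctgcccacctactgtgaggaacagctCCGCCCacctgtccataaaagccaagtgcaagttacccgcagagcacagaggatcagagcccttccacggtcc
The other short-chain collagens did not share a direction. Col8a2, the partner chain of Col8a1, had 189 (deeper) and 34.1 (shallower) normalized counts in the sham libraries and 47.5, 35.4 and 43.9 in the stroke libraries. The authors' deposited table gave -1.41 on the log2 scale (SE 0.69, adjusted p = 0.425), which rested on the deeper sham library, since all stroke libraries lay above the shallower. Col10a1, a collagen of hypertrophic cartilage, had 11.6 and 6.8 in the sham libraries and 20.7, 38.9 and 30.5 in the stroke libraries, all above both. The log2 change of Col10a1 in the authors' deposited table was 1.69 (SE 0.76, adjusted p = 0.355), on 5 to 44 reads per library.

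The 11 fibrillar collagens were neither called nor separated by group. All 11 had overlapping groups, 3 had a positive and 8 a negative fold change, and the median log2 change was -0.11. Col1a1 and Col1a2, the chains of collagen I, had overlapping ranges. Col1a1 had 426 and 228 normalized counts in the sham libraries and 167, 350 and 446 in the stroke libraries, and Col1a2 had 681 and 565 against 422, 665 and 718. For both genes stroke library 1 was the lowest and stroke library 3 the highest of all 5 libraries. Col3a1, the collagen III chain, had 135 and 95.4 in the sham libraries and 81.2, 157 and 187 in the stroke libraries, with the same order of stroke libraries. The log2 changes in the authors' deposited table were -0.03 (SE 0.46), -0.05 (SE 0.31) and 0.30 (SE 0.46) for Col1a1, Col1a2 and Col3a1, with adjusted p = 0.999, 0.990 and 0.939. The fibrillar member of largest absolute fold change was Col24a1, a minor fibrillar collagen of bone and brain cortex. It had 156 and 58.6 in the sham libraries and 68.3, 41.5 and 27.8 in the stroke libraries, where stroke library 1 lay above the shallower sham library. The log2 change of Col24a1 in the authors' deposited table was -1.23 (SE 0.60, unadjusted p = 0.0421, adjusted p = 0.436).

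The remaining collagen classes held no call. Collagens that bind to fibril surfaces (FACIT) all overlapped, from -0.59 to 0.28 on the log2 scale over 9 genes in the authors' deposited table. Col12a1, the member with the highest mean count but not the highest per kilobase, had 454 and 665 normalized counts in the sham libraries and 448, 604 and 580 in the stroke libraries. Col9a3 had 494 and 105 in the sham libraries and 209, 187 and 201 in the stroke libraries, all between them. Of the beaded filament collagen VI, Col6a1 had 1699 and 661 in the sham libraries and 1844, 1335 and 1038 in the stroke libraries. Col6a4 had 165 and 32.7 in the sham libraries and 78.7, 33.6 and 72.6 in the stroke libraries, again between them. Col6a6, without an adjusted p, had 4 to 11 reads per library and all stroke libraries above both sham libraries.

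Of the multiplexins, basement membrane zone collagens that carry the endostatin domain, Col15a1 had 202 and 35.4 normalized counts in the sham libraries and 65.7, 69.8 and 55.5 in the stroke libraries. Col18a1 had 197 and 79.0 in the sham libraries and 156, 171 and 185 in the stroke libraries. In both genes every stroke library lay between the sham libraries. Col25a1, a transmembrane collagen of neurons, had 1751 and 1549 in the sham libraries and 1848, 1897 and 1883 in the stroke libraries, all above both. Its log2 change in the authors' deposited table was 0.19 (SE 0.19, adjusted p = 0.884), the smallest SE among the tested members. Col23a1, another transmembrane collagen, had 455 and 273 in the sham libraries and 288, 271 and 305 in the stroke libraries, which overlap. Col7a1, the anchoring fibril collagen, had 63.5 and 12.3 in the sham libraries and 46.7, 61.0 and 38.5 in the stroke libraries. Col26a1 had 111 and 31.3 in the sham libraries and 59.6, 48.6 and 61.8 in the stroke libraries. Stroke libraries again lay between the sham libraries for Col7a1 and Col26a1.

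Sparc was the member with the most reads and the one whose sham libraries differed most in absolute counts. It had 13825 (deeper) and 2641 (shallower) normalized counts in the sham libraries and 4123, 4150 and 3971 in the stroke libraries. The stroke libraries lay close together (4081 ± 96.5, SD, n = 3), while the sham libraries differed 5.24-fold. The log2 change in the authors' deposited table was -1.01 (SE 0.52, adjusted p = 0.489). By limma the log2 change of Sparc was 0.63 without the deeper sham library and -1.76 without the shallower, so its sign depended on the sham library. Fibronectin (Fn1) had 2068 and 2526 in the sham libraries and 2359, 3456 and 4176 in the stroke libraries, where stroke library 1 lay between the sham libraries. The log2 change of Fn1 in the authors' deposited table was 0.54 (SE 0.29, adjusted p = 0.530).

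**Figure D3:**
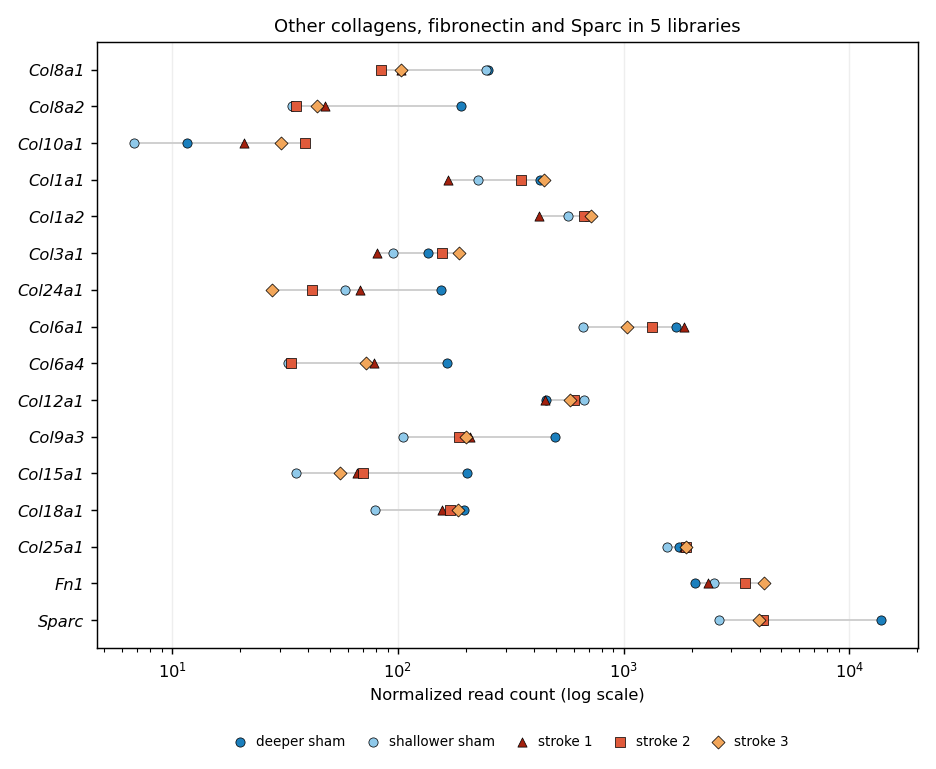
Normalized read counts (x axis, log scale) of 14 collagens outside the collagen IV class, Fn1 and Sparc are plotted for the 2 sham libraries (blue circles) and 3 stroke libraries (red to orange symbols). The 2 circles coincide for Col8a1, to the right of all stroke symbols, and lie far apart for Sparc (13825 and 2641), Col8a2, Col9a3 and Col15a1, with the stroke symbols between or beside the lower one.

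Per kilobase of merged exons, a scale on which genes can be compared, the order of levels was much the same in both groups. The mean level per kilobase over the sham libraries was 2173 normalized counts for Sparc, 269 for Col6a1, 232 for Col4a2, 197 for Fn1 and 180 for Col4a1. Over the stroke libraries it was 1077 for Sparc, 352 for Col4a2, 327 for Col4a1, 321 for Col6a1 and 285 for Fn1. The same 5 genes led in both groups. Among the other 4 the neighbours in this order overlapped between libraries, as Col6a1 alone ranged from 237 to 421 per kilobase in the stroke libraries. Lamc1 followed next in both groups, at 132 in sham and 179 in stroke. Col4a3 and Col4a4 had 3.72 and 3.71 per kilobase in sham and 1.35 and 1.61 in stroke, far below Col4a1 and Col4a2.

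The 2 sham libraries differed from each other more in collagens than in laminins. The deeper sham library had more than 2 times the normalized count of the shallower in 23 of 60 members, against 14.5% of tested genes with recovered reads. These were 21 of the 44 collagens, Nid2 and Sparc, and none of the 11 laminins. All 11 fibrillar collagens were higher in the deeper sham library. Set against the shallower sham library alone, all stroke libraries were higher in 40 members (37.4% of tested genes with recovered reads). Set against the deeper alone, all stroke libraries were lower in 24 members (39.1% of those genes). Every stroke library lay between the sham libraries in 19 members, of which 17 were collagens and 1 a laminin, against 26.2% of those genes. For 34 of the 60 members the limma fold change had opposite signs against each sham library alone. The share of all genes with such opposite signs was not computed.

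The difference between the sham libraries moved with base composition. Across the 60 members, which share the same libraries, log2 of the shallower over the deeper count had a Pearson r of -0.53 and a Spearman rho of -0.50 with the GC content of the longest transcript, and over 8223 tested genes with a mean of at least 50 the r was -0.57. The median ratio of the deeper to the shallower sham library was 1.13 in the 18 members under 52% GC, 1.40 in the 23 members from 52% to 58%, and 3.00 in the 19 members of 58% or more. Between stroke libraries the same correlations over the members were -0.03 to -0.10, and -0.24 to 0.07 over the 45 members with a mean of at least 50. They were 0.22 to 0.27 over the 11 laminins and 0.08 to 0.16 over the 8223 genes. The log2 change itself had an r with GC of 0.09 over the members, 0.39 over the 11 laminins and 0.25 over the 8223 genes. Genes are not independent replicates, so these are descriptions. The part of GC content in the members' fold changes was not tested. Col8a1 was 46.8% and Col4a1 57.7% GC.

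**Figure D4:**
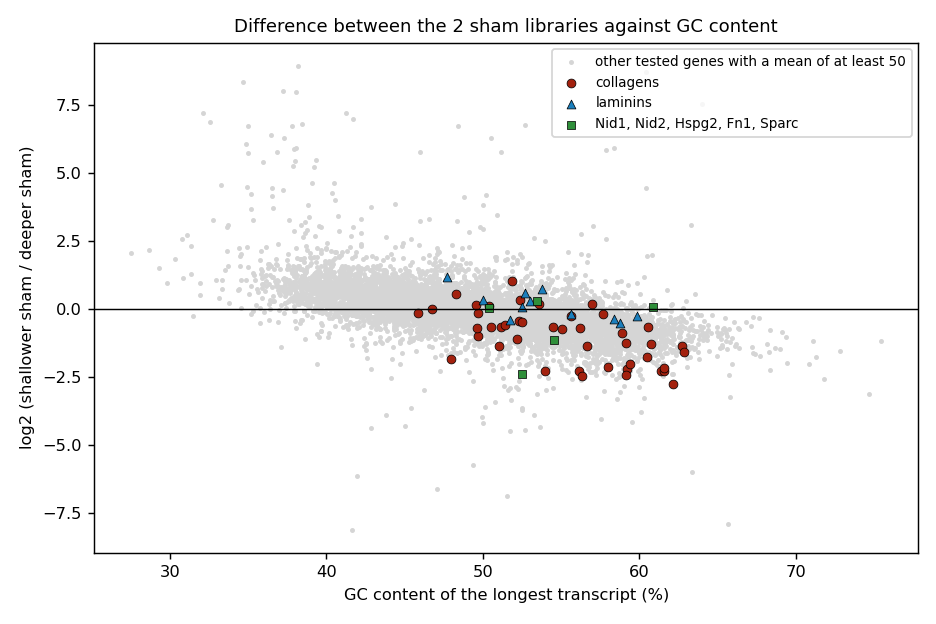
Each point is a gene: the x axis is the GC content (%) of its longest transcript and the y axis is log2 of the shallower over the deeper sham count, with tested genes of a mean of at least 50 in grey and the members coloured by family. Members of 58% GC or more lie mostly below 0, and the laminins lie nearer to 0 than the collagens.

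Neuronal Snap25 (mean normalized count 65803) and astrocytic Slc1a2 (102016) were abundant in the authors' deposited table, and none of the 8 neuron, 8 astrocyte and 8 microglia markers was called. For the calls of markers given here, the shares over all tested genes were 0.775% higher and 0.786% lower. All 5 red cell genes were lower in stroke, with summed normalized counts of 2801 (deeper) and 474 (shallower) in the sham libraries and 67.2 to 230 in the stroke libraries. Of 10 choroid plexus markers, Ttr and Folr1 were lower in the authors' deposited table. The 7 with recovered reads summed to 1644 (deeper) and 207 (shallower) in the sham libraries and 381 to 391 in the stroke libraries. The largest parts of this sum were Kl (708 and 113 in the sham libraries) and Clic6 (485 and 62.7), with all stroke libraries between. Otx2 and Aqp1 held the same order. Folr1 and Sostdc1 were instead lower in every stroke library than in either sham library, and the groups of Kcne2 overlapped without this order. In 18 members the deeper sham library was the highest and the shallower the lowest of the 5, as in that sum (15.8% of tested genes with recovered reads). Col8a2, Col9a3, Col15a1 and Sparc were among them, while Col8a1 was nearly equal in both sham libraries (251 and 247). Of 12 mural cell markers, Acta2, Tagln and Myl9 were higher, and the 12 summed to 5136 and 6626 in the sham libraries and 6784 to 8383 in the stroke libraries. The largest part of this sum was Rgs5, which overlapped between groups. Rgs5 had 1551 and 3213 in the sham libraries and 3069, 3398 and 2136 in the stroke libraries. Acta2 and Tagln held the order of the sum, but Myl9 (153 and 149 in the sham libraries) did not. Lamc1, Lamb1, Hspg2, Col4a6 and Col6a6 also had the deeper sham library lowest, then the shallower, then all stroke libraries. Margins were small in Lamb1 and Col4a6, and the sham libraries were nearly equal in Hspg2 (284 and 293). Col6a6 had 4 to 11 reads per library. The share of all genes in this order was not computed. None of 12 endothelial markers was called, and they summed to 5420 and 8724 in the sham libraries and 7217 to 9177 in the stroke libraries. None of 11 tested fibroblast and meningeal markers, which include Col1a1 and Lamc3, was called (7532 and 4845 in the sham libraries, 5031 to 6312 in the stroke libraries). Of the markers with recovered reads, only Dpt, a fibroblast gene, was at 0 in a library (stroke library 1). The part of these cell types in the members' values was not tested.

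No gene was called in 3 further lists, of matrix biosynthesis, matrix receptors and other matrix proteins. Of all tested genes, 0.775% were called higher and 0.786% lower, so 0 calls in lists of this size are near the background. An unadjusted p under 0.05 was found for 10.5% of all tested genes. None of 26 tested collagen biosynthesis enzymes and chaperones was called in either direction, with a median log2 change of 0.11. Only P4ha1, a prolyl hydroxylase subunit, had an unadjusted p under 0.05, with 844 and 804 normalized counts in the sham libraries and 1000, 1197 and 1198 in the stroke libraries. Those with the highest mean counts, P4hb (protein disulfide isomerase) and Mia3 (which loads collagen for export), stood at 0.26 (SE 0.21) and 0.18 (SE 0.22) on the log2 scale by the authors' deposited table. None of 24 tested matrix receptors was called, with a median log2 change of 0.13. Only Cd44, a hyaluronan receptor, had an unadjusted p under 0.05, with 117 and 120 in the sham libraries and 124, 188 and 550 in the stroke libraries. Its stroke library 3 stood apart upward, as for Hspg2. The receptors Sdc3 (a neural syndecan) and Itgav (the integrin alpha V chain), with the highest mean counts of the list, stood at 0.11 (SE 0.30) and 0.20 (SE 0.28) on that scale by the authors' deposited table. None of 28 other basement membrane and matrix proteins was called, with a median log2 change of 0.03. An unadjusted p under 0.05 was found for Tinagl1 and Thbs1, with positive fold changes, and Frem1, with a negative one. Their log2 changes in the authors' deposited table were 0.85 (SE 0.35), 1.26 (SE 0.55) and -0.85 (SE 0.43). Sparcl1, the relative of Sparc, had a log2 change of -0.25 (SE 0.22) and Agrn (agrin) one of -0.07 (SE 0.34), by the authors' deposited table.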

How the data were processed

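Libraries came from a stranded mRNA kit, per the labels' protocols. Alignment with STAR 2.5.2b to GRCm38, counting with featureCounts 1.5.1 and testing with DESeq2 1.14.1 are named in the submitters' processing notes. The sources used here give no strand setting for the counting, so reads of overlapping antisense genes cannot be told apart. Per the file headers, the authors deposited for each gene a signal (the mean of size-factor-normalized counts), a log2 change with its SE, a Wald statistic, which is a score, and a p-value with its adjusted p-value. The file holds no values per library. The direction of the fold change is unnamed there; rows with a single read took a positive sign for 3 libraries and a negative sign for 2, so positive was taken as higher in stroke.

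Calls used the deposited adjusted p below 0.05. Whole reads per library were searched for in Python 3.11.15 with numba 0.67.0: a set of 5 whole numbers had to give the deposited mean, fold change and SE, and where several did, the one whose dispersion matched was taken. The search succeeded for 12175 of 12213 genes, and 28 had several sets. Among the members, Col23a1, Col4a1, Col4a2, Fn1 and Sparc were settled by dispersion, Sparc among 87 sets. The choice by dispersion among several sets was not tested with known reads, and the counts that follow do not cover it. In a simulation of stroke against sham with known reads, 397 of 400 genes came back right and 0 wrong, and 0 of 300 genes with a shifted mean were accepted. The simulated fold changes and SEs came from the same fit that the search uses. Only genes of a mean under 1000 were drawn, so Col25a1, Col6a1 and Lamc1 lie outside the simulated range. Recovered genes hold 12.0% of the summed deposited means, since only genes of a mean up to 1000 (3000 for members and listed genes, and Sparc) were tried, so library totals are not given. The design had assumed values per library or a results table, and the authors' Wald test is the main test.

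Limma 3.58.1 in R 4.3.3, with trend and robust variance, was run on log2(normalized reads + 1) as an alternative. In a simulation over 12175 genes it called 29 of 100 genes of 2-fold and 82 of 100 of 4-fold change. The simulated libraries all had the same dispersion, with no difference between the sham libraries tied to GC content. These shares therefore do not give the power of limma in the data. Coordinates, exon lengths and transcript GC are from GENCODE M21, matched by identifier for all 60 members. Members, gene lists and tests were chosen with earlier results of these data known. Named members are every called member, all collagen IV, laminin, nidogen and perlecan genes except 1 that is not reported here by name, Col1a1, Col1a2, Col3a1, Fn1, Sparc, and in each other class the member of highest mean and the most changed member. Of the other lists, called genes and the uncalled genes of highest mean are named. P4ha1, Cd44, Tinagl1, Thbs1, Frem1, Otx2, Kl, Clic6, Aqp1, Kcne2, Sostdc1, Rgs5, Dpt, Col8a2, Col6a6, Col11a1 and Col16a1 were named after their values were seen.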

Additional observations from a re-analysis of the deposited data

How the results depend on the processing

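No paired analysis was possible because the recovered libraries carry no replicate numbers. Against a fold of 1.5, and by limma on recovered reads (added after the data were seen), 0 members were called higher and 0 lower. Over all genes, calls higher went from 135 to 17 against a fold of 1.5 and 1 by limma. Calls lower went from 137 to 88 with every gene with a p-value, 39 with a mean of at least 100, 10 against a fold of 1.5, 207 at an adjusted p below 0.1 and 1 by limma. The 0 calls in the other matrix lists stayed at 0 in each of these. Leaving out 1 library can only keep or raise the counts by position, which were 14 above and 3 below with all libraries. With each library left out in turn, members with every stroke library above the sham libraries numbered 15 to 40 (40 without the deeper sham library). Those below numbered 3 to 24 (24 without the shallower, 7 without the deeper sham library, 5 without stroke library 1). Of tested genes with recovered reads, 37.4% lay above without the deeper sham library and 39.1% below without the shallower. Shares of all genes for the other counts were not computed.

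Named members whose sign turned in a leave-one-out fit are given by their lowest and highest log2 change (limma; where 1 sham library was left, its spread was assumed to be that of the stroke libraries; the cause was not tested). Lowest without the deeper sham library and highest without the shallower sham library were Col12a1 (-0.30 to 0.25) and Lama2 (-0.65 to 0.50). Lowest without the shallower sham library and highest without the deeper sham library were Col15a1 (-1.66 to 0.82), Col18a1 (-0.21 to 1.10), Col1a1 (-0.52 to 0.38), Col23a1 (-0.66 to 0.076), Col26a1 (-0.97 to 0.83), Col6a1 (-0.31 to 1.05), Col6a4 (-1.5 to 0.80), Col7a1 (-0.40 to 1.88), Col8a2 (-2.15 to 0.29), Col9a3 (-1.31 to 0.92), Nid2 (-0.13 to 1.04) and Sparc (-1.76 to 0.63). Lowest without stroke library 3 and highest without stroke library 1 was Col1a2 (-0.23 to 0.15). Lowest without the shallower sham library and highest without stroke library 1 was Col3a1 (-0.0175 to 0.59). Of 483 values for 38 named members, 435 kept direction and side of the threshold, which for uncalled members meant staying uncalled. Settings that changed only the adjustment or the threshold kept the deposited fold change, so its sign could not turn there. In the other settings outside leave-one-out, 0 of these values turned. Outside these 38, Col16a1 and Col11a1 did turn, from -0.24 and -0.25 in the authors' deposited table to 0.17 and 0.0056 by limma on all libraries.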
